A study of Mus musculus with 5 samples.

Results

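Kinesins are motor proteins that use ATP to move along microtubules or to take microtubules apart. The kinesin genes were taken here as every gene symbol that consists of Kif, a number and at most a letter and a further digit, which found 37 of the 23284 gene symbols counted. Of these 37 genes, 34 were expressed highly enough to be tested. Kinesins were grouped by their known main role into 11 mitotic kinesins, 7 neuronal transport kinesins, 8 general transport kinesins, 6 ciliary and hedgehog kinesins and 5 others. C-type kinesins and Cenpe carry other symbols and were described as partners.

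In a dividing cell, mitotic kinesins push spindle poles apart, align and separate chromosomes, and build the midzone where the cell divides. In neurons, transport kinesins carry vesicles, organelles and RNA along axons and dendrites. The neural tube holds both dividing neural progenitors and the first neurons, so both kinds of motor are made in the same tissue. Fewer cells of a type and less RNA per cell cannot be told apart in RNA from whole tissue.

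PolyA RNA was sequenced from neural tubes of mouse embryos labelled as day 8.5 of development. EpoR-null embryos carried no intact allele of EpoR, which encodes the receptor for erythropoietin (EpoR -/-, 2 samples, null1 and null2). The controls were 2 wild type samples (EpoR +/+, WT1 and WT2) and 1 heterozygote (EpoR +/-, Het1), littermates from crosses of heterozygous mice, and the deletion was carried in the germline and so not limited to neural cells. The study's methods give a slightly later stage than the labels and do not say whether a sample was a single embryo, and the p-values measure only the spread between these samples.

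Reads counted on genes ranged from 19316126 to 41169218 per sample, so that 3 reads were worth 0.0729 to 0.155 CPM, reads per 1000000 reads on genes. All CPM below were scaled by the trimmed mean of M values (TMM). The targeted gene, Epor, was at 2.35 and 1.62 CPM in WT1 and WT2, 0.476 CPM in Het1, and 0.354 and 0.669 CPM in null1 and null2. The heterozygote therefore lay between the null samples at this gene, and the null and control ranges overlapped (log2 fold change -1.51 ± 0.76 SE, FDR = 0.28, exact test of edgeR). Summed erythroid markers were 44.2 CPM in Het1 and 603 to 1694 CPM in the other samples, and summed endothelial markers were 11.8 CPM in Het1 and 125 to 275 CPM in the others. All 8 neural progenitor markers were detected in all samples, with a summed level of 2144 to 2888 CPM.

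A minority of the kinesin genes fell in the EpoR-null neural tubes, and most had a log2 fold change below 0 without passing the thresholds. By edgeR's exact test with a p under 0.001 and a Benjamini-Hochberg adjusted p (FDR) under 0.05, 5 of 34 tested kinesin genes fell (Kif24, Kif13b, Kif14, Kif20b and Kif13a), against 3.84% of all 12703 genes tested. At FDR < 0.05 alone 7 fell, with Kif5b and Kif21b added, against 5.49% of all genes. No kinesin gene rose by either rule, where 0.929% and 1.81% of all genes did, and at an unadjusted p < 0.05 14 kinesin genes fell and 0 rose, against 11.9% and 7.88% of all genes. Both null samples were below all 3 controls for 19 kinesin genes, against 22.1% of all genes, and above all controls for 0, against 21.2% of all genes. The median log2 fold change was -0.34 over the kinesin genes and 0.056 over all genes.

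How many kinesin genes were called varied with the test and with single samples. The count of 5 rests on dispersions estimated in 1 step. Dispersions estimated in 2 steps, common and then tagwise, gave 4 calls (Kif13b, Kif14, Kif20b and Kif24) against 2.55% of all genes, and this form was replaced after its kinesin results had been seen. The quasi-likelihood F-test of edgeR gave 0 calls among the kinesin genes and among all genes, with 14 of 34 lower at an unadjusted p < 0.05 against 13.8% of all genes. DESeq2 gave 8 calls, all lower, against 5.93% of all genes. After correction for the length and GC content of transcripts, only Kif13b was called, as described with the length values. Leaving out WT1 left 1 call against 0.881% of all genes lower, Het1 2 against 1.89%, WT2 3 against 2.23% and null2 3 against 5.1%. Leaving out null1 gave 16 calls against 10.2% of all genes, so the calls over all genes rose as well.

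**Figure D1:**
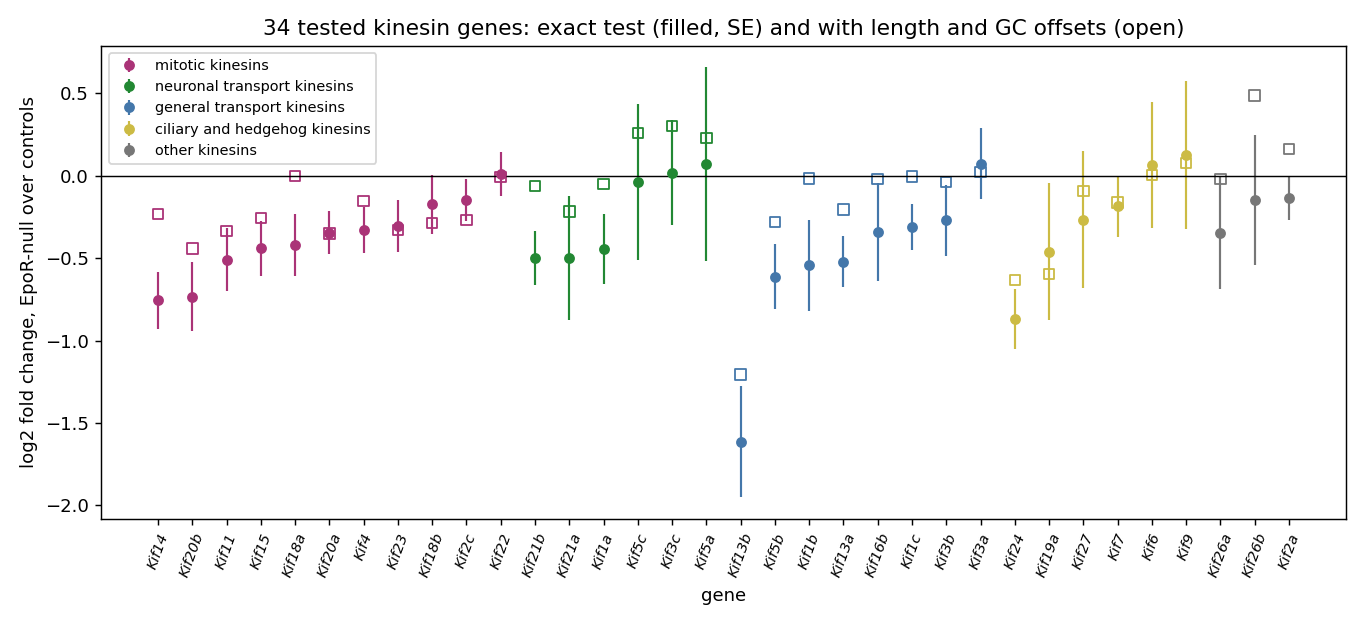
Log2 fold change of EpoR-null over controls (vertical axis) for the 34 tested kinesin genes (horizontal axis), coloured by role. Filled points with bars are the exact test's estimates ± SE and open squares are estimates with transcript length and GC offsets; 28 of the 34 filled points are below 0, and Kif13b is the lowest at -1.61.

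Among the 11 mitotic kinesins, all tested, 2 fell past both thresholds (Kif14 and Kif20b) and 9 had both null samples below all controls. Over all genes tested, 3.84% fell past both thresholds and 22.1% had both null samples below all controls. The median log2 fold change of the mitotic kinesins was -0.34, with a median transcript length of 4819 bases. All tested genes of similar length (median 4968 bases) had a median log2 fold change of -0.17. The summed level of the mitotic kinesins was 1555, 1472 and 1551 CPM in WT1, WT2 and Het1, and 1266 and 1134 CPM in null1 and null2. All 11 were below every control in null1, and 9 were in null2. Over all 12703 genes tested, 4776 were below every control in null1 and 5000 in null2.

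Kif14 (chr1:136466343-136531511, + strand in GRCm38) works at the midzone and midbody in the last step of cell division. Its level was 56.6, 51.8 and 57.7 CPM in WT1, WT2 and Het1, and 36.0 and 29.7 CPM in null1 and null2. The groups did not overlap, with control and null means of 55.4 ± 3.13 (SD, n = 3) and 32.8 ± 4.41 (SD, n = 2) and a log2 fold change of -0.75 ± 0.17 SE (FDR = 0.00113, exact test of edgeR). Without WT1 or without Het1 its FDR was 0.133 or 0.0665, and the call was lost. Kif20b (chr19:34922361-34975745, + strand in GRCm38), a midzone motor needed for normal cell division in the developing cortex, was at 109, 92.0 and 107 CPM in the controls and 73.5 and 50.1 CPM in null1 and null2. It too was lower in both null samples than in any control, with a log2 fold change of -0.73 ± 0.21 SE (FDR = 0.0158, exact test of edgeR). Without WT1, WT2 or Het1 its FDR was 0.281, 0.0558 or 0.170, and without null2 it passed the FDR threshold alone.

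Kif11, the Eg5 motor that slides spindle microtubules apart, was at 301, 268 and 291 CPM in WT1, WT2 and Het1, and 234 and 169 CPM in the null samples. Kif15, which acts beside Kif11 in keeping the spindle bipolar, was at 195, 182 and 206 CPM in the controls and 160 and 127 CPM in the null samples. Both genes were lower in each null sample than in any control, with log2 fold changes of -0.51 ± 0.19 and -0.44 ± 0.17 SE that did not pass the thresholds (FDR = 0.0943 and 0.0898, exact test of edgeR). Kif20a, a motor of the midzone, was at 199, 200 and 194 CPM in the controls and 152 and 159 CPM in the null samples. Kif23, which with Racgap1 forms the centralspindlin complex, was at 130, 116 and 124 CPM in the controls and 110 and 89.3 CPM in the null samples. For these cytokinesis motors the groups did not overlap either, and the log2 fold changes were -0.34 ± 0.13 and -0.30 ± 0.16 SE.

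Kif4, a chromosome-bound motor that also limits midzone microtubules, was at 126, 119 and 127 CPM in the controls and 106 and 91.5 CPM in the null samples. Kif18a, which dampens chromosome movements at the metaphase plate, was at 60.03, 51.4 and 59.4 CPM in the controls and 48.1 and 37.1 CPM in the null samples. Kif2c, which removes tubulin from microtubule ends at centromeres, was at 145, 144 and 146 CPM in the controls and 129 and 133 CPM in the null samples. These 3 had both null samples below all controls, and none passed the thresholds (log2 fold changes -0.33, -0.42 and -0.15). Kif18b, a motor of astral microtubule ends, was at 71.1, 80.0 and 72.5 CPM in the controls and 57.1 and 75.1 CPM in the null samples. Kif22, which moves chromosome arms away from the poles, was at 162, 168 and 167 CPM in the controls and 160 and 174 CPM in the null samples. For Kif18b and Kif22 null1 was below the controls and null2 was not, and the log2 fold change of Kif22, 0.01 ± 0.13 SE, changed sign with the scaling (-0.04 with library size only).

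**Figure D2:**
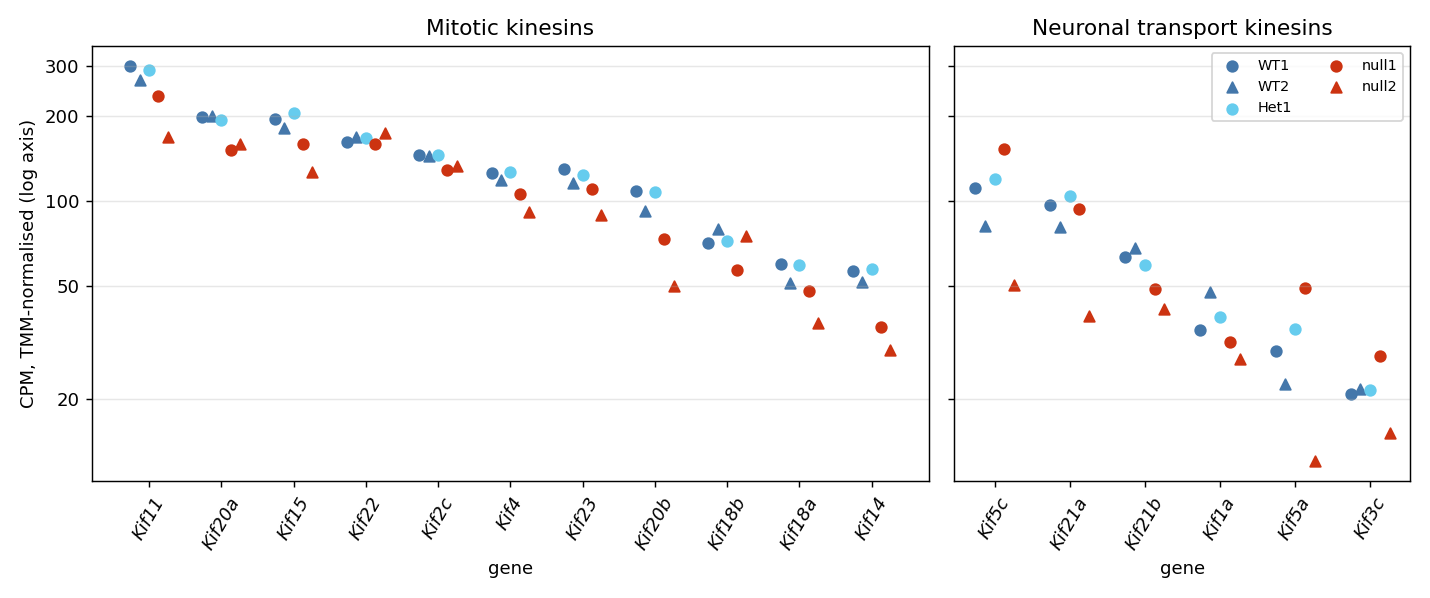
TMM-normalised CPM (log axis) of the 11 mitotic and 6 tested neuronal transport kinesins in each of the 5 samples. Points are single samples, with controls in blue and EpoR-null in red. For 9 of 11 mitotic genes both red points lie below all blue points, against 22.1% of all genes tested. For Kif5a, Kif5c and Kif3c null1 lies above and null2 below the controls.

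Promoters of mitotic genes often carry the cell cycle homology region (CHR), a short element read as TTTGAA or TTTAAA, and a CCAAT box. Promoter sequences of 31 of the 37 kinesin genes were available from RefSeq (GRCm38.p6), covering 250 bases before and 50 after the start site, and both strands were searched. TTTGAA occurred in 9 of 10 mitotic kinesin promoters, the exception being Kif18a, and in 1 of 5 neuronal transport (Kif1a), 0 of 6 general transport, 1 of 5 ciliary and 1 of 5 other kinesin promoters. Over all 27025 genes with a promoter sequence, 20.2% held it, and so did 15 of 21 spindle and cytokinesis genes, a list described below. TTTAAA occurred in 2 of the 10 mitotic promoters against 14.9% of all genes, and CCAAT in 6 of 10 against 41.1%. Of the 21 spindle and cytokinesis genes, 7 held TTTAAA and 13 held CCAAT. A match is a description of the letters and not a bound site.

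To show these elements, the 100 bases before and 25 after the start site are given 5′ to 3′ for 6 mitotic kinesins, with matches on either strand in capitals. These genes and this window were chosen after the matches had been seen. Kif14 and Kif20b are the mitotic genes that passed the thresholds, Kif11, Kif15 and Kif23 did not pass, and Kif22 was at nearly equal levels in both groups.
Kif11 (chr19:37376282-37376406, + strand): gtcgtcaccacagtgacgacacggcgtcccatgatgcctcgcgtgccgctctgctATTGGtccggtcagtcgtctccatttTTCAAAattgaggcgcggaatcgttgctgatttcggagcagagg
Kif14 (chr1:136467748-136467872, + strand): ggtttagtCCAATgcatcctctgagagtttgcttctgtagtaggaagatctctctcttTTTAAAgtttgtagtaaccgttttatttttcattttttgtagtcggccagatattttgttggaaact
Kif15 (chr9:122950981-122951105, + strand): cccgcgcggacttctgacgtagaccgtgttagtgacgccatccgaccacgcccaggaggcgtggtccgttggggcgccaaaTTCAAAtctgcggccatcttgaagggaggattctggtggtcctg
Kif20b (chr19:34922258-34922382, + strand): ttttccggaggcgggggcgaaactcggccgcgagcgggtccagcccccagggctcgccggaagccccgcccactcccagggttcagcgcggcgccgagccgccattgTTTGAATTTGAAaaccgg
Kif22 (chr7:127042396-127042520, - strand): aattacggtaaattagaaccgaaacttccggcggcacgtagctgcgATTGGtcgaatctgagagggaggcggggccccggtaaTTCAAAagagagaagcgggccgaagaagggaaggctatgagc
Kif23 (chr9:61946775-61946899, - strand): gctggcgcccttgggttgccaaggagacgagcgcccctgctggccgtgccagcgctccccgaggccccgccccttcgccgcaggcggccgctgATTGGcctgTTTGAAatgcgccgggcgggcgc

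In Kif11 and Kif15 the element lay on the strand opposite to the gene, 19 to 14 bases before the start site. In Kif22 it lay 17 to 12 bases before the start site, also on the strand opposite to the gene. Kif15 and Kif22 each held a further copy outside the printed window, 234 to 229 and 215 to 210 bases before the start. Kif20b held 2 copies in a row, at 8 to 13 and 14 to 19 bases after the start counted from 1, and Kif23 held a copy at 3 to 8. The TTTGAA of Kif14 lay at 228 to 223 bases before the start, outside the printed window, which shows its TTTAAA and CCAAT. Any link between the element and the levels of these genes was not tested. Of the neuronal kinesins, Kif1a held TTTGAA at 44 to 39 bases before the start. The same window of the neuronal kinesins Kif3c and Kif5c, printed as examples without a match, held none of the 3 motifs.
Kif3c (chr12:3365032-3365156, + strand): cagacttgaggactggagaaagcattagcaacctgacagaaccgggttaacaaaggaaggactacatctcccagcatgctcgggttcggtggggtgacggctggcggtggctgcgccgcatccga
Kif5c (chr2:49619186-49619310, + strand): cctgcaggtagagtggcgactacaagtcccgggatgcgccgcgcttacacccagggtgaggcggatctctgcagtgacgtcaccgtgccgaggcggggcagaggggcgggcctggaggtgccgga

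Of the 7 neuronal transport kinesins, 6 were tested, and 0 passed both thresholds in the exact test of edgeR. At an unadjusted p < 0.05 there were 2 (Kif21b and Kif1a), at FDR < 0.05 alone 1 (Kif21b), and DESeq2 called 1. Over all genes tested, 3.84% were lower past both thresholds, 11.9% at an unadjusted p < 0.05 and 5.49% at FDR < 0.05 alone. DESeq2 called 5.93% of all genes lower. The median log2 fold change of the neuronal transport kinesins was -0.24, but the null samples moved apart. The median log2 ratio to the control mean, with 0.5 CPM added, was 0.20 in null1 and -0.83 in null2. For the mitotic kinesins these medians were -0.28 and -0.46.

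Kif5a, a neuron-specific heavy chain of conventional kinesin, was at 29.5, 22.6 and 35.5 CPM in WT1, WT2 and Het1, 49.3 CPM in null1 and 12.0 CPM in null2. Kif5c, the other neuron-enriched heavy chain, was at 112, 81.9 and 120 CPM in the controls, 153 CPM in null1 and 50.6 CPM in null2. Kif3c, a neuron-enriched subunit of kinesin-2, was at 20.9, 21.7 and 21.6 CPM in the controls, 28.3 CPM in null1 and 15.2 CPM in null2. In all 3 genes null1 was the highest sample and null2 the lowest. Their log2 fold changes of 0.07 ± 0.59, -0.04 ± 0.47 and 0.02 ± 0.32 SE are means of opposite movements, and changed sign when single samples were left out: without null1 they were -1.27, -1.04 and -0.50, and without null2 they were 0.76, 0.55 and 0.40. The sign for Kif3c was also negative with library size only (-0.01).

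Kif21a, a slow motor that restrains microtubule growth in axons, was at 97.0, 81.2 and 104 CPM in the controls, 94.0 CPM in null1 and 39.3 CPM in null2. Only null2 was below the controls for this gene. Kif21b, a related motor of dendrites, was at 63.5, 68.3 and 59.7 CPM in the controls and 48.9 and 41.5 CPM in the null samples. Kif1a, which carries precursors of synaptic vesicles, was at 35.1, 47.8 and 39.0 CPM in the controls and 31.9 and 27.8 CPM in the null samples. For Kif21b and Kif1a both null samples were below all controls, with log2 fold changes of -0.50 ± 0.16 and -0.45 ± 0.21 SE (FDR = 0.0403 and 0.220, exact test of edgeR). Kif21b missed FDR < 0.05 without WT1, WT2, Het1 or null2 (FDR = 0.443, 0.311, 0.185 and 0.0865, exact test of edgeR). Kif17, a dendritic motor, was at 0.216 to 0.372 CPM and below the filter.

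**Figure D3:**
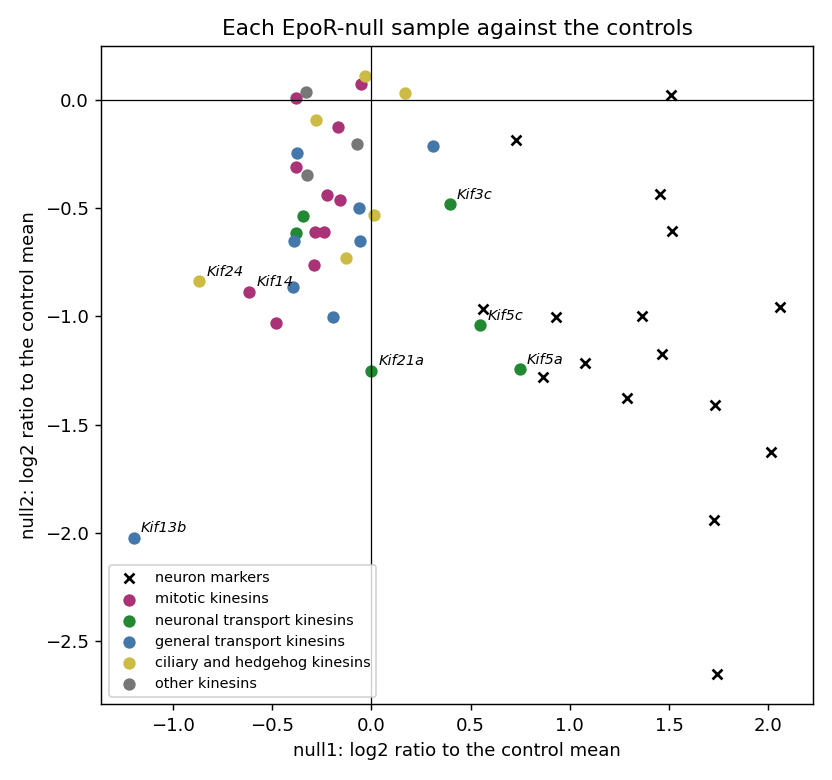
Log2 ratio to the control mean of each tested kinesin gene and of 16 neuron markers in null1 (horizontal axis) and null2 (vertical axis), with 0.5 CPM added. Points are genes, coloured by role; Kif5a, Kif5c and Kif3c lie at the lower right with the neuron markers, and most mitotic kinesins lie at the lower left.

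Of the 6 tested neuronal transport kinesins, Kif5a, Kif5c and Kif3c were above all controls in null1 and below them in null2, as most neuron markers were, and Kif21a, Kif21b and Kif1a were not. The summed level of the neuron markers was 623, 450 and 745 CPM in WT1, WT2 and Het1, 1701 CPM in null1 and 301 CPM in null2, in the same order of samples as Kif5a, Kif5c and the sum of the neuronal transport kinesins (358, 324, 380, 406 and 187 CPM). All 16 neuron markers in the tables were above every control in null1, and 15 were below every control in null2. Over all 12703 genes tested, 4961 were above every control in null1 and 5000 were below every control in null2. The null and control ranges overlapped for all 16 neuron markers, and 0 of them passed the thresholds (1 at an unadjusted p < 0.05 in the exact test of edgeR). The part of neuron number in the levels of Kif5a, Kif5c and Kif3c was not tested. The ratio of summed mitotic to summed neuronal kinesin CPM was 4.34, 4.55 and 4.08 in the controls, 3.12 in null1 and 6.08 in null2, so the null samples lay on either side of the controls.

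**Figure D4:**
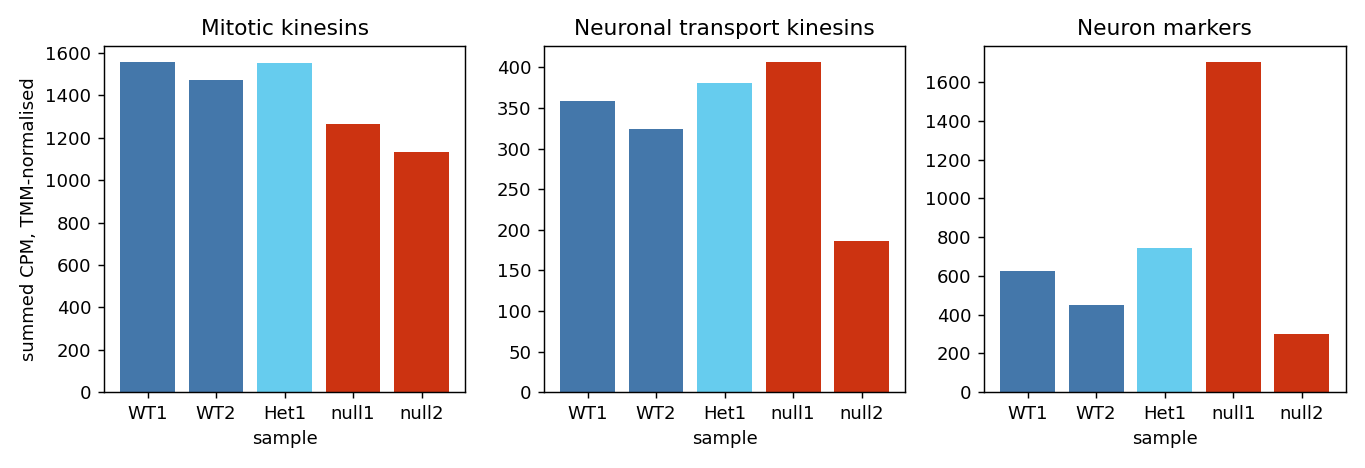
Summed TMM-normalised CPM (vertical axes, from 0) of mitotic kinesins, neuronal transport kinesins and neuron markers in each of the 5 samples, 1 bar per sample. Both EpoR-null bars are below all controls for mitotic kinesins (1266 and 1134 CPM), while null1 is the highest and null2 the lowest for the other lists.

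The 8 general transport kinesins, which carry cargo in most cell types, had a median log2 fold change of -0.43. Of these, 2 were lower past both thresholds, against 3.84% of all genes tested. Kif13b (chr14:64647265-64809617, + strand in GRCm38), which carries membrane proteins and signalling complexes, was at 23.5, 22.3 and 28.8 CPM in WT1, WT2 and Het1, and 10.6 and 5.74 CPM in null1 and null2. It fell by 1.61 ± 0.34 SE on the log2 scale, the largest change of any kinesin gene (FDR = 0.000553, exact test of edgeR). Kif13b kept its call without WT1, WT2 or Het1, and its FDR was 0.0730 in the quasi-likelihood F-test. Its log2 fold change was -2.11 without null1 and -1.23 without null2, fits that leave 1 null sample. Kif13a (chr13:46749087-46929867, - strand in GRCm38), which moves recycling endosomes, was at 81.1, 77.9 and 83.1 CPM in the controls and 61.5 and 51.1 CPM in the null samples. Its groups did not overlap (log2 fold change -0.52 ± 0.15 SE, FDR = 0.0177, exact test of edgeR), and the call was lost without WT1, WT2 or Het1 (FDR = 0.343, 0.131 and 0.232); without null2 it passed the FDR threshold alone.

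Kif5b, the widely expressed heavy chain of conventional kinesin, was at 273, 240 and 277 CPM in the controls and 200 and 144 CPM in the null samples. Kif1b, a motor of mitochondria and vesicles, was at 269, 233 and 288 CPM in the controls and 230 and 131 CPM in the null samples. Both null samples were below the controls for both genes, with log2 fold changes of -0.61 ± 0.20 (FDR = 0.0359, exact test of edgeR) and -0.54 ± 0.27 SE (FDR = 0.262). Kif5b missed FDR < 0.05 without WT1, WT2, Het1 or null2 (FDR = 0.383, 0.116, 0.222 and 0.0562, exact test of edgeR). The other 4 general transport kinesins, Kif1c, Kif3a, Kif3b and Kif16b, did not pass, with log2 fold changes from -0.34 to 0.07.

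Of the 6 ciliary and hedgehog kinesins, Kif24 was lower past both thresholds, against 3.84% of all genes tested. The median log2 fold change of this list was -0.23. Kif24 (chr4:41390745-41464887, - strand in GRCm38), which acts at centrioles and restrains the assembly of cilia, was at 35.2, 34.2 and 39.4 CPM in the controls and 19.6 and 20.1 CPM in null1 and null2. The null samples agreed closely and lay below all controls (log2 fold change -0.87 ± 0.18 SE, FDR = 0.000298, exact test of edgeR), and without WT1 the FDR was 0.0624. Kif7, a regulator of hedgehog signalling, was at 27.6 to 30.5 CPM in the controls and 24.0 to 27.3 CPM in the null samples and did not pass. Kif19a, Kif27, Kif6 and Kif9 had control means under 5 CPM and did not pass. Of the remaining kinesins, Kif2a, Kif26a and Kif26b did not pass (log2 fold changes -0.35 to -0.14), Kif2b had 1 read in all and Kif12 had 0 reads.

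Fold changes moved with transcript length across the whole table. Over 11525 tested genes with an annotated transcript, the log2 fold change fell by 0.24 for each doubling of length, and its median went from 0.43 in the shortest of 10 length classes to -0.46 in the longest (Spearman correlation -0.63, across genes, which are not independent replicates). Tested kinesin transcripts had a median length of 5614 bases against 3513 for all genes. With offsets that removed each sample's trend on length and GC content, the likelihood-ratio test of edgeR called 1 kinesin gene, Kif13b (log2 fold change -1.20, FDR = 0.00397), against 1.14% of all genes at FDR < 0.05. Without offsets the same test called 5. The median moved to -0.08 over all kinesin genes, to -0.27 for mitotic and to 0.09 for neuronal transport kinesins. Over all genes with these offsets it was -0.0074. Kif14, with a transcript of 8943 bases, moved from -0.75 to -0.23, and Kif24, with 5593 bases, from -0.87 to -0.63. Kif20a, with 3674 bases, was at -0.34 and -0.35.

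**Figure D5:**
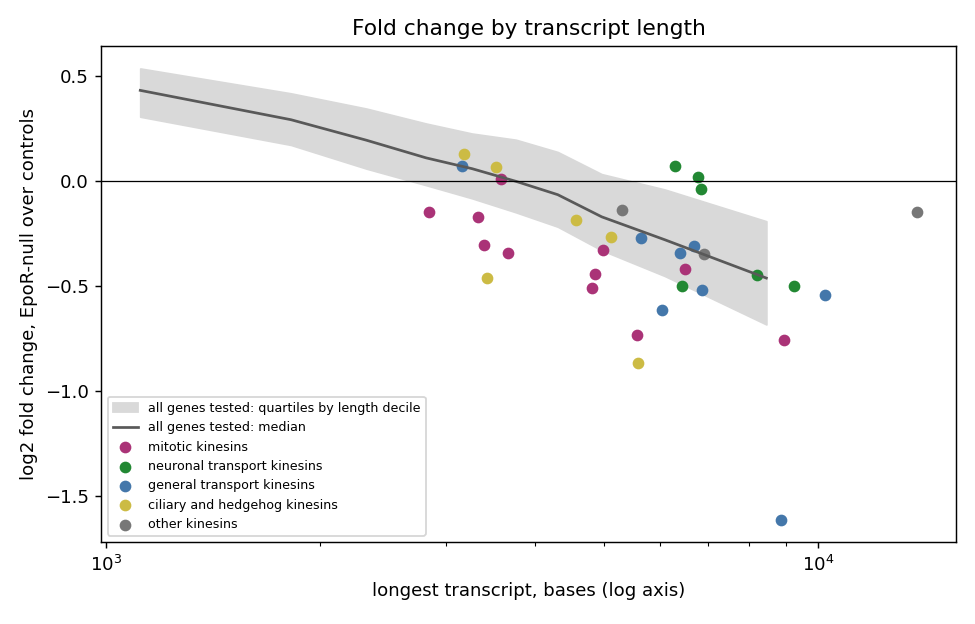
Log2 fold change of EpoR-null over controls against the length of the longest transcript (log axis) for the tested kinesin genes, coloured by role. The line and grey band are the median and quartiles of all genes tested in 10 length classes, falling from 0.43 to -0.46; Kif13b lies far below the band and the mitotic kinesins mostly below the line.

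Genes that work with the kinesins in division and transport were counted in 4 further lists. Over all genes tested, the exact test of edgeR had 3.84% lower and 0.929% higher past both thresholds. At FDR < 0.05 alone it had 5.49% lower and 1.81% higher, and at an unadjusted p < 0.05 it had 11.9% lower and 7.88% higher. Both null samples were below all controls for 22.1% of all genes, and DESeq2 called 1028 of 12703 genes in either direction. Of 25 spindle and cytokinesis genes, 3 fell past both thresholds and 4 at FDR < 0.05 alone, with a median log2 fold change of -0.16 and both null samples below all controls for 12. The 4 were Cenpf (-0.72), Hmmr (-0.55), Ect2 (-0.53) and Numa1 (-0.46), which act at kinetochores, spindle, cleavage furrow and spindle poles. Of 10 proliferation markers, 0 passed the exact test of edgeR (3 lower and 1 higher at an unadjusted p < 0.05, and Ccnb2 called by DESeq2 as higher), with a median of -0.01. Of 14 tested partners and C-type kinesins, 0 passed both thresholds (1 lower at an unadjusted p < 0.05, 1 called by DESeq2), and this gene, the kinetochore motor Cenpe, was at -0.74 (FDR = 0.0311, exact test of edgeR). Of 23 tested dynein and dynactin genes, which move cargo the other way along microtubules, the heavy chain Dync1h1 fell (-0.62) and the light chain Dynlrb1 rose (0.58), and the median was 0.08. With the length and GC offsets these were -0.04 and 0.04, and 1 spindle gene, Hmmr, stayed past the FDR threshold (-0.50). The list medians with these offsets were -0.19 for spindle and cytokinesis genes, -0.11 for proliferation markers, -0.03 for partners and C-type kinesins and -0.02 for dynein and dynactin, beside -0.08 for all kinesin genes.

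Levels of different kinesin genes were compared as CPM per kilobase of the longest transcript. In controls the highest were Kif11 at 59.5 ± 3.54 (SD, n = 3), Kif20a at 53.8 ± 0.944, Kif2c at 51.0 ± 0.253 and Kif22 at 46.1 ± 0.891 CPM per kilobase. Kif5b at 43.7 ± 3.31 was the highest transport motor, within its spread of Kif22. The highest neuronal transport kinesins were Kif5c at 15.3 ± 2.93 and Kif21a at 14.6 ± 1.83 CPM per kilobase, which did not differ beyond their spread. Kif13b, the gene with the largest fold change, was low at 2.80 ± 0.392 in controls and 0.919 in the null samples. Mitotic kinesins made up 51.0% to 52.6% of all kinesin CPM in the controls, 49.5% in null1 and 56.6% in null2.

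Kif18a, Kif20a, Kif2a, Kif3c and Kif4 overlap another counted gene in GENCODE on the other strand, and Kif17 overlaps one on the same strand. The strand setting of the counting is not given in the sources used here, so reads of these genes and their neighbours may be mixed.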

How the data were processed

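Per the submitters' processing notes, trimming used Trimmomatic 0.32, alignment TopHat2 2.1.0 with the mm9 build, and counting HTSeq 0.6.1. The study's methods name another build and TopHat version, and the gene annotation is not given in the sources used here. The values the authors deposited are raw read counts per gene symbol, 1 table per sample, without normalization. HTSeq's summary lines (10.4% to 12.9% of reads, outside genes or ambiguous) were left out. Groups came from the genotype labels.

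The kinesin genes and all gene lists were chosen with earlier results of these data known. Software was edgeR 4.0.16 and DESeq2 1.42.0 under R 4.3.3. Genes were tested where at least 2 samples exceeded 1 CPM (12703 of 23284). The main test was exactTest with TMM scaling and tagwise dispersions, null against the 3 controls, with Benjamini-Hochberg FDR over all genes; calls needed p < 0.001 and FDR < 0.05. Tagwise dispersions were first estimated with estimateCommonDisp and estimateTagwiseDisp, which called 351 genes and 4 kinesin genes. They were then changed to estimateDisp, which called 606 and 5, to match an earlier processing of these data. This change was made after the kinesin results of the first form had been seen and kept with both known, it raised the count, and both are reported. SE came from the negative binomial information. Samples, tests, scalings, filters and offsets were varied as the closing section gives. The exact test with either dispersion estimate, the likelihood-ratio test and DESeq2 were run on simulated counts. So was the quasi-likelihood F-test, with and without the replicate block. At FDR < 0.05, unchanged genes made up 25.7% of calls by the exact test and 27.0% with dispersions in 2 steps. The likelihood-ratio test had 26.0% and DESeq2 30.8%. These shares exceed the nominal FDR, and the quasi-likelihood F-test came closer to it, at 8.70% and, with the block, 7.56%. That test also recovered fewer of the genes simulated with an absolute log2 fold change of 1, at 44% and, with the block, 32%. The exact test recovered 67% of them and DESeq2 75%. All these shares come from a single simulated data set. The fits with the heterozygote as a separate group and with offsets and the replicate block were not run on simulated counts.

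Transcript length, GC content and overlaps came from the longest GENCODE M21 (GRCm38) transcript by symbol (90.7% of tested genes, all 34 kinesin genes); loess offsets had a span of 0.5. No coordinates of the authors' build were used. Values were printed in each sample for the tested mitotic and neuronal transport kinesins, for other members with FDR < 0.05 or with both null samples beyond all controls and an absolute log2 fold change of at least 0.5, and for Epor; other lists are given as counts with their largest changes at FDR < 0.05. Depth intervals cover counting error only. No pair of libraries agreed within sampling noise (lowest chi-square per degree of freedom 13.3).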

Additional observations from a re-analysis of the deposited data

How the results depend on the processing

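The 5 kinesin genes past both thresholds became 0 with the quasi-likelihood F-test, 2 with the same test and a replicate block (Kif14 and Kif24), 8 with DESeq2, 3 with library size only, 0 when the heterozygote formed a separate group, 1 with length and GC offsets (likelihood-ratio test), and 0 with offsets and the replicate block. The separate group used the quasi-likelihood F-test, which alone gave 0, so its 0 says nothing of the grouping. The offsets with the replicate block used the same test with the block, which without offsets gave 2. Over all genes, that test with the block gave 291 calls without offsets (12703 genes tested) and 0 with them (11525 genes tested). Leaving out each sample gave 1 to 16 calls. RLE size factors, both other filters and the likelihood-ratio test without offsets gave 5. Dispersions estimated in 2 steps, an alternative added after the data were seen and in fact the form run first, gave 4, with 351 in place of 606 calls over all genes; Kif13a, Kif21b and Kif5b then missed FDR < 0.05 (0.0874, 0.144 and 0.0557).

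The mitotic median (-0.34) stayed negative, at -0.46 to -0.29 with a sample left out, -0.27 with offsets and -0.26 with offsets and the replicate block. The neuronal transport median (-0.24) changed sign, at -0.83 to 0.20 with a sample left out, 0.089 with offsets and 0.063 with offsets and the replicate block; without null1 it was -0.83 and without null2 0.20. The cause was not tested.

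Some genes changed sign. Kif22 was at -0.0017 with the replicate block, -0.039 with library size only, -0.025 without a filter, -0.0070 with offsets, -0.030 with offsets and the replicate block, and -0.054 to 0.072 with a sample left out. Kif5a was at -0.0058 with the replicate block and -1.27 to 0.76 with a sample left out. Kif3c was at -0.0082 with library size only, -0.013 without a filter and -0.50 to 0.40 with a sample left out. Kif5c was at 0.073 when the heterozygote formed a separate group, 0.26 with offsets, 0.29 with offsets and the replicate block, and -1.04 to 0.55 with a sample left out. Kif18b was at -0.39 to 0.0084 with a sample left out, and Kif1b at 0.0069 with offsets and the replicate block.

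Labels give the wild type and null samples the numbers 1 and 2 without saying that a number marks a litter. Differences between replicates 1 and 2 correlated at 0.43 (Pearson, over genes) between the genotypes, and the replicate block is given as an alternative only. With 2 null samples that differ in neuron markers, neither depth nor these tests fix the direction of Kif5a, Kif5c, Kif3c or the neuronal transport median. Kif21b and Kif1a stayed below 0 with a sample left out (-0.62 to -0.39 and -0.55 to -0.31). With length and GC offsets (likelihood-ratio test) these 2 genes were at -0.06 and -0.05.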
